A study of Rattus norvegicus with 12 samples.

Results

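Gfap, Gjb6, Slc1a2, Mlc1 and Lcn2, 5 genes that mark or change in astrocytes, were compared in rat striatum between dyskinetic and untreated parkinsonian animals. They were chosen by symbol, with earlier results of these data known, and each had 1 probe, so the set is 5 of 9218 named genes and 5 of 13375 probes. All 5 were measured on every array, and no filter on low values was applied here to the deposited probes. On 12 one-colour Illumina arrays, 6 samples labelled LID came from rats of a Parkinson's disease model that had become dyskinetic under chronic treatment with 25 mg/kg L-Dopa methyl ester and 6.25 mg/kg benserazide. The other 6, labelled PD control, came from rats of the same model without levodopa, and the samples date from day 8 after chronic treatment. Levodopa is the precursor of dopamine, and benserazide blocks its conversion outside the brain. The sources used here do not give strain, sex, age or the lesion behind the model. No group received levodopa without dyskinesia, so drug and dyskinesia cannot be told apart.

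Astrocytes couple to each other through gap junctions, clear glutamate from synapses, and wrap blood vessels with endfeet that handle water and ions. After injury or inflammation they become reactive, a state known for more of the filament protein GFAP and for secreted proteins such as lipocalin-2. In the striatum they surround the synapses of the cortical and dopaminergic inputs onto the output neurons. The 5 genes cover these roles: Gjb6 (connexin 30) for coupling, Slc1a2 (the transporter GLT-1, also called EAAT2) for glutamate uptake, and Mlc1 for endfoot membranes. Gfap stands for the filament and Lcn2 for the secreted protein.

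Gjb6, Slc1a2, Mlc1 and Lcn2 were higher in LID, and Gfap did not pass the threshold. Of the 5 genes, 4 rose and 0 fell (limma, Benjamini-Hochberg adjusted p under 0.05 over all probes), where 6.47% of all 13375 probes rose, 5.54% fell and 12.0% passed in either direction. The groups did not overlap for 2 of the 5, Gjb6 and Slc1a2, and for 6.12% of all probes. Their median log2 difference was 0.47, beside -0.0036 over all probes. The rises were moderate, from 1.27-fold for Slc1a2 and Mlc1 to 1.60-fold for Gjb6. In whole tissue, more astrocytes, more RNA per astrocyte and RNA from other cells cannot be told apart.

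**Figure D1:**
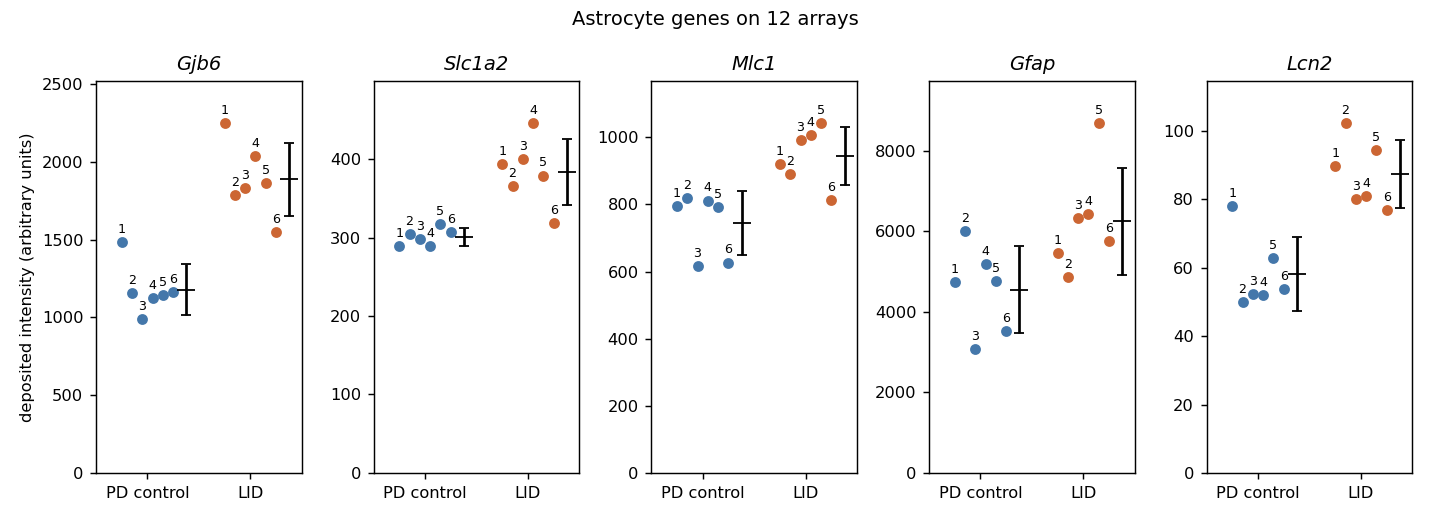
Deposited intensity (arbitrary units, axes from 0) of the 5 genes on each array, with PD control in blue and LID in orange. Numbers are replicates, and the black bar is the mean with its SD over 6 arrays. The groups of Gjb6 and Slc1a2 do not overlap, while those of Gfap do.

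The 300 bases around a listed start (250 before to 50 after) are shown for Gjb6 and Lcn2, which had the largest rises of the set, and for Gfap and Mlc1, which deviated together among arrays of a group. They are RefSeq promoters of GRCr8, all on the minus strand and given 5′ to 3′ along the gene. They lie at chr15:35410089-35410388 (Gjb6, the first of 2 listed starts), chr3:36081731-36082030 (Lcn2), chr10:88361612-88361911 (Gfap) and chr7:121946649-121946948 (Mlc1). The starts of Mlc1 (121946698), Gjb6 (35410138) and Lcn2 (36081780) lie inside the annotated genes. On this strand those genes begin at 121949484, 35410649 and 36081851, so these windows, that of Mlc1 most of all, may miss the upstream promoter. Capitals mark matches, on either strand, to any of 7 motifs searched: STAT (TTCNNNGAA), AP-1 (TGANTCA), C/EBP (TTGCNNAA), SOX (ACAATGG), NF-kB (GGG, any 5 bases, then CC), and a full (TTGGC, any 5 bases, then GCCAA) and a loose (TGG, any 7 bases, then CCA) site of nuclear factor I (NFI).
Gjb6: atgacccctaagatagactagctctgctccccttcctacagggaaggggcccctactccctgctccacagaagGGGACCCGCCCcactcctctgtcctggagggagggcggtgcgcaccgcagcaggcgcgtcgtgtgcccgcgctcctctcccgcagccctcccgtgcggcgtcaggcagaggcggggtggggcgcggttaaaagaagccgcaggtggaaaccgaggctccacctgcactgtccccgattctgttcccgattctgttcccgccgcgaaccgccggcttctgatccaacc
Lcn2: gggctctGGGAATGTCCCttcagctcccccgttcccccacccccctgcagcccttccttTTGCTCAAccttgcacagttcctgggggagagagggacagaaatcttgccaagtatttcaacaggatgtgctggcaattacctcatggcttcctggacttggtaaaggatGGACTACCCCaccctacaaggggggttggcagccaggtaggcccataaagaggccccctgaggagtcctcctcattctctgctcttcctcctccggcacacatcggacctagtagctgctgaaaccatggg
Gfap: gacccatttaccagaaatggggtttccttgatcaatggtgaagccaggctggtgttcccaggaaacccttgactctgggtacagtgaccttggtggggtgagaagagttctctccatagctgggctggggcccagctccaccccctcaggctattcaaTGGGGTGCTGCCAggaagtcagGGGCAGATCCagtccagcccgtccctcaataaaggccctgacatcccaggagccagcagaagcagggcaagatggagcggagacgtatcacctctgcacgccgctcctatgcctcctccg
Mlc1: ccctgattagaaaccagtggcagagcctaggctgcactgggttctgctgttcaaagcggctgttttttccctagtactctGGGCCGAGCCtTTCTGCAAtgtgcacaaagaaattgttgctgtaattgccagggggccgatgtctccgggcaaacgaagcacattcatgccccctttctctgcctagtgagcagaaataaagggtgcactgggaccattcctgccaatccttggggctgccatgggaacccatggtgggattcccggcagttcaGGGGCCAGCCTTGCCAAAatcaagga

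The matches in these windows were few, and those to NF-kB in Gjb6 and at the far end of Lcn2 are pairs that overlap each other on opposite strands. NF-kB letters were found in the promoters of all 5 genes (for Slc1a2 at the first of 2 starts), a loose pattern held by 47.3% of the 33469 promoters searched. C/EBP letters, held by 10.6% of promoters, occurred in Lcn2 once (TTGCTCAA, bases -191 to -184 from the start), in Mlc1 at 2 places and in Slc1a2 at its second start. Gfap alone among the windows shown held the loose NFI pattern (TGGGGTGCTGCCA, bases -92 to -80), which 9.69% of promoters hold and which overlaps an NF-kB match. STAT, AP-1, SOX and full NFI letters were in none of the member windows; 8.87%, 7.33%, 3.90% and 0.0418% of promoters held them.

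Gjb6 encodes connexin 30, which forms gap junctions between astrocytes. Its deposited intensity ran from 987 to 1485 in PD control (median 1151) and from 1551 to 2249.6 in LID (median 1847). All LID arrays exceeded all PD control arrays, which held for 3.34% of all probes. PD control replicate 1 was the highest of its group and LID replicate 6 the lowest of its own. The log2 difference was 0.68 ± 0.10 (SE, n = 6 per group; 95% interval 0.47 to 0.89; limma adjusted p = 0.00089). An exact two-sided permutation test of the same values gave p = 0.00216, and no smaller p is possible with 12 arrays in equal groups. Without any 1 array the difference stayed between 0.63 and 0.75.

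No other connexin gene measured passed the test. Gja1, which encodes connexin 43, the main astrocyte connexin, gave a bright signal and ran from 5773 to 7169 in PD control and from 6311 to 6996 in LID. Its log2 difference was 0.03 ± 0.06 (95% interval -0.087 to 0.16), so a rise as large as that of Gjb6 lies outside its interval. On each array the log2 value of Gjb6 minus that of Gja1 was higher in LID, by 0.64 ± 0.10 (SE, n = 6 per group; 95% interval 0.43 to 0.86). Again all 6 LID arrays lay above all PD control arrays (exact permutation p = 0.00216, adjusted p = 0.0087 over the 4 pairs compared). Gjb2 (connexin 26), also found in astrocytes and meninges, differed by 0.21 ± 0.07 and did not pass. Of 9 connexin and pannexin genes measured, 2 rose and 1 fell: Gjb6, Panx1 (0.57 ± 0.11), which encodes a channel that releases ATP, and Panx2, which fell by 0.24. Panx1 gave a dim signal, from 56.5 to 66.9 in PD control and from 68.7 to 115 in LID. On every PD control array it lay below the lower quartile of all probes (68.9). The list's median was -0.017, and of all genes 7.46% rose and 6.03% fell. Without PD control replicates 1, 3 and 6, described below, Panx2 differed by -0.12 and no longer passed (limma adjusted p = 0.29).

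**Figure D2:**
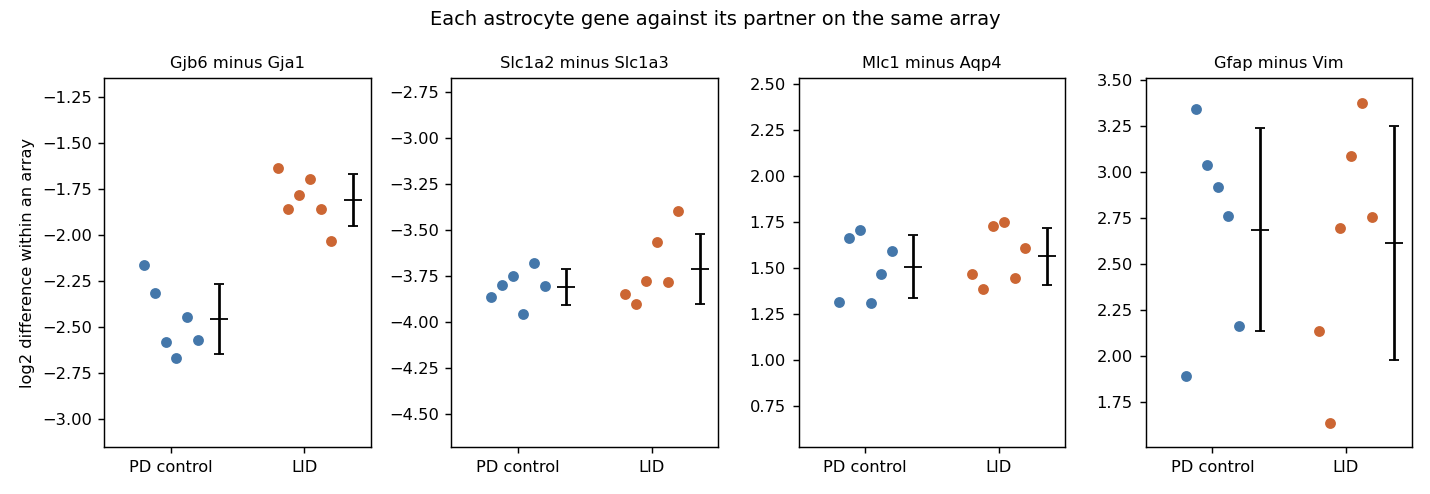
Log2 value of each gene minus that of its partner on the same array, for 6 PD control (blue) and 6 LID (orange) arrays. Black bars are means with SD; each axis spans 2.0 log2 units. Gjb6 minus Gja1 separates the groups, and the 3 other pairs overlap.

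Slc1a2 encodes the transporter that takes up most glutamate in the forebrain. In PD control its intensity was nearly the same on all arrays, from 289 to 317 (median 301). In LID it ran from 319 to 446 (median 386), above every PD control array although replicate 6 did so by little. The spread in LID (SD 0.16 on the log2 scale) was thus wider than in PD control (SD 0.051), a comparison that was not tested. The log2 difference was 0.34 ± 0.07 (95% interval 0.20 to 0.48; limma adjusted p = 0.0051; exact permutation p = 0.00216). This call held in each fit without 1 array, with differences of 0.30 to 0.39.

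Slc1a3, the other glial glutamate transporter (GLAST), differed by 0.24 ± 0.11 and did not pass (limma adjusted p = 0.17). On 5 of 6 LID arrays it was above every PD control array, but LID replicate 6 (3408, against 4079 to 4574 in PD control) was below all of them. Without that array the difference was 0.36 and passed (limma adjusted p = 0.00052). Slc1a2 minus Slc1a3 within an array differed by 0.10 ± 0.09 between groups (95% interval -0.097 to 0.29; exact permutation p = 0.31, adjusted p = 0.62 over 4 pairs), so unequal changes of the 2 transporters were not shown. Of 11 genes of glutamate uptake and the glutamine cycle, 2 rose and 0 fell (list median -0.032), beside 7.46% and 6.03% of all genes. The second was Slc38a2, a glutamine and neutral amino acid transporter (0.41 ± 0.06), which did not overlap between groups (2169 to 2439 against 2712 to 3449). Slc38a3, the glutamine exporter of astrocytes, differed by 0.20 ± 0.09 and Glud1, glutamate dehydrogenase, by -0.03 ± 0.06, and neither passed. The glutamine synthetase gene Glul had no named probe.

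Mlc1 encodes a membrane protein of perivascular endfeet, known from human megalencephalic leukoencephalopathy with subcortical cysts. Its intensity ran from 616.5 to 819 in PD control (median 794) and from 812 to 1042 in LID (median 956). The groups overlapped by 1 array: LID replicate 6 lay just below PD control replicate 2. PD control replicates 3 and 6 were well below the other 4, at 616.5 and 627, against 793 to 819. The log2 difference was 0.35 ± 0.09 (95% interval 0.16 to 0.54; limma adjusted p = 0.020; exact permutation p = 0.0043). The call was lost by a small margin without LID replicate 4 (0.33, limma adjusted p = 0.0502) or LID replicate 5 (0.32, limma adjusted p = 0.051). Leaving out PD control replicates 1, 3 and 6 gave 0.22, which did not pass (limma adjusted p = 0.10).

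Aqp4, the water channel of endfeet, differed by 0.29 ± 0.13 and did not pass. Mlc1 minus Aqp4 differed by 0.056 ± 0.094 between groups (95% interval -0.15 to 0.27; exact permutation p = 0.55, adjusted p = 0.74 over 4 pairs). Hepacam, whose product binds MLC1, had no named probe, and Aqp4 took its place in this comparison. Of 13 endfoot, volume and potassium genes, 2 rose and 1 fell (list median 0.068), beside 7.46% and 6.03% of all genes. Beside Mlc1, Slc4a4, a sodium bicarbonate cotransporter, rose (0.21 ± 0.05), and Clcn2, a chloride channel that partners with GlialCAM, fell by 0.20. Neither passed without the same 3 PD control arrays (0.15, limma adjusted p = 0.12, and -0.18, limma adjusted p = 0.15). Kcnj10, the astrocyte potassium channel Kir4.1, was dim and differed by 0.09 ± 0.04, which did not pass.

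Gfap encodes the intermediate filament of astrocytes. Its intensity ran from 3085 to 6013 in PD control (median 4751) and from 4863 to 8695 in LID (median 6044), and the groups overlapped. PD control replicate 3 was lowest and LID replicate 5 highest, and 3 LID arrays exceeded every PD control array. The log2 difference was 0.47 ± 0.16 (95% interval 0.11 to 0.82), and it did not pass (limma adjusted p = 0.085). Among single values, the exact permutation test gave p = 0.028, not adjusted for other genes. The SD among arrays was 0.36 in PD control and 0.29 in LID on the log2 scale, the widest of the set in each group.

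The Gfap difference depended on single arrays. It passed without PD control replicate 2, the highest control (0.56, limma adjusted p = 0.045), and was smallest without PD control replicate 3 (0.36, limma adjusted p = 0.15). Without PD control replicates 1, 3 and 6 it was 0.21 (limma adjusted p = 0.45). Vim, which encodes vimentin, another filament of reactive astrocytes and of vessels and meninges, differed by 0.54 ± 0.25 and did not pass (limma adjusted p = 0.19). Without PD control replicate 1, the highest control for Vim, it was 0.72 and passed (limma adjusted p = 0.049). Gfap minus Vim differed by -0.07 ± 0.34 between groups (95% interval -0.83 to 0.69; exact permutation p = 0.83), an interval too wide to order them. Of 11 intermediate filament genes none rose and 2 fell, beside 7.46% and 6.03% of all genes. Both are of neurons: Nefm (neurofilament medium, -0.32 ± 0.09) and Prph (peripherin, -0.41 ± 0.12). Without the 3 PD control arrays they differed by -0.23 and -0.32 and neither passed (limma adjusted p = 0.14 and 0.12).

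Lcn2 encodes lipocalin-2, a secreted protein that binds iron-carrying siderophores and is made by reactive astrocytes and by neutrophils. Its probe gave a dim signal, from 50.1 to 78.2 in PD control (median 53.1) and from 76.8 to 102 in LID (median 85.4). On 5 PD control arrays it lay below the lower quartile of all probes, and on 0 LID arrays. PD control replicate 1 stood above the other controls (78.2 against 50.1 to 62.9) and above LID replicate 6, so the groups overlapped by that array. The log2 difference was 0.55 ± 0.10 (95% interval 0.34 to 0.77; limma adjusted p = 0.0035; exact permutation p = 0.0043), and without PD control replicate 1 it was 0.63 (limma adjusted p = 0.00052). For so dim a probe the size of the change depends on the background correction. It was 0.60 from log2 of the deposited values and 1.79 with an offset of 1 in place of 50, and it passed in both (limma adjusted p = 0.0035 and 0.0087).

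Of 15 measured genes that act with Lcn2 or induce it, Lcn2 included, 9 did not pass, 4 rose and 2 fell (median 0.054), beside 7.46% and 6.03% of all genes. Slc22a17, a proposed receptor for lipocalin-2, fell by 0.22 (SE 0.04, limma adjusted p = 0.0032), from 3179 to 3464 in PD control to 2693 to 2972 in LID with no overlap. Mmp9, a metalloproteinase that forms a complex with lipocalin-2, rose by 0.52 ± 0.12, from a dim signal (85.8 to 105 against 103 to 187), and did not pass without the 3 PD control arrays (0.51, limma adjusted p = 0.080). Jak2, a kinase upstream of STAT3, rose by 0.44 ± 0.08 and Tnfrsf1a, a receptor for tumour necrosis factor, by 0.22 ± 0.05. Nfkbia, which encodes an inhibitor of NF-kB, fell by 0.47. Stat3 (0.15 ± 0.06), Nfkb1 (0.05 ± 0.05), Rela (-0.05 ± 0.06) and Il1b (0.10 ± 0.05) did not pass. Il6, Tnf and Socs3 had no named probe.

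Granule genes of neutrophils, another source of Lcn2 but not the only one, were dim, with 4 of 13 listed genes measured. S100a8 rose (0.36 ± 0.08), Prtn3 fell by 0.19, and Mpo and Camp differed by 0.04 and 0.06 and did not pass. S100a8 ran from 45.5 to 52.6 in PD control and from 56.4 to 87.3 in LID. It reached the lowest maximum of any probe, 57.6, only in LID, so it may have been deposited only through LID. The summed intensity of the 4 was 230 to 250 in PD control and 245 to 276 in LID. S100a9, Elane, Ngp and Ltf had no named probe, and without the 3 PD control arrays neither S100a8 nor Prtn3 passed (limma adjusted p = 0.079 and 0.060). The part of these cells in the Lcn2 result was not tested.

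Most astrocyte markers did not pass. Of 22 astrocyte markers measured of 30 listed, 7 rose, 0 fell and 15 did not pass (median 0.16), where 7.46% of all 9218 genes rose and 6.03% fell. Differences were positive for 17 of the 22 and negative for 5. Slc1a3 and Aqp4, described above, were among the positive ones that did not pass. Of the 18 markers outside the set of 5, 4 rose, with a median of 0.081. They were Htra1, a serine protease (0.83 ± 0.06, groups not overlapping, limma adjusted p = 7.1e-06), Slc7a10, the D-serine and neutral amino acid transporter Asc-1 (0.34 ± 0.07), Fgfr3, a growth factor receptor (0.27 ± 0.07), and Slc4a4. Of the others, S100b (a calcium-binding protein) differed by -0.08 ± 0.08, Aldoc (aldolase C) by 0.06 ± 0.05 and Gja1 by 0.03 ± 0.06, and none of them passed. Slc39a12, a zinc transporter, had the lowest difference (-0.44) and a wide interval. The list's summed intensity was 37950 to 44248 in PD control and 42624 to 51317 in LID. Aldh1l1 and Sox9 had no named probe. Fgfr3 did not pass in 7 of the 12 fits without 1 array. Without PD control replicates 1, 3 and 6, 3 of the 22 rose, Gjb6, Slc1a2 and Htra1 (limma adjusted p = 0.0036, 0.046 and 0.00070).

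**Figure D3:**
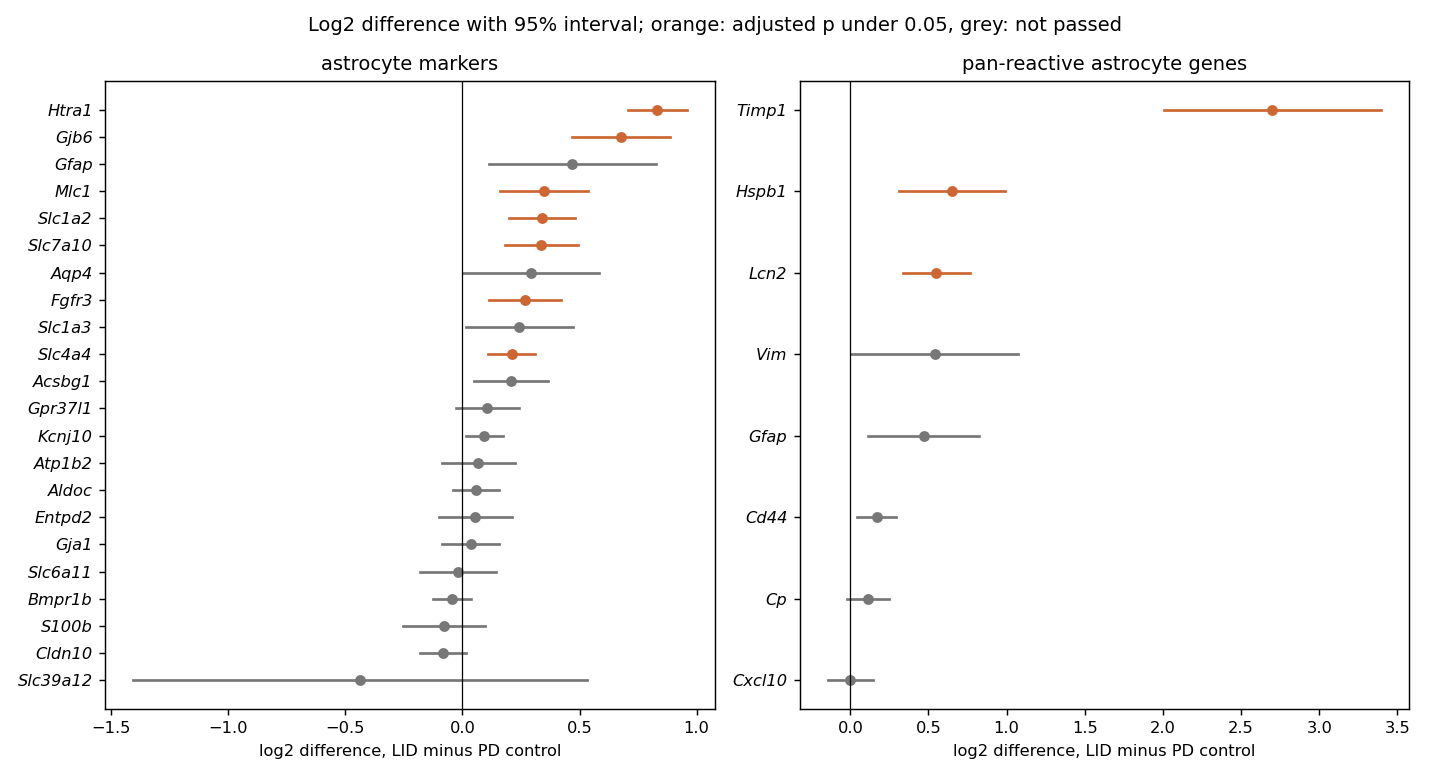
Log2 difference between LID and PD control with its 95% interval for 22 astrocyte markers (left) and 8 pan-reactive genes (right), 1 row per gene; the 2 panels have different axes. Orange marks adjusted p under 0.05 and grey the rest: 7 markers and 3 pan-reactive genes passed, all of them higher in LID.

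Of 13 pan-reactive astrocyte genes, 8 were measured, 3 rose (Timp1, Hspb1 and Lcn2) and 0 fell, beside 7.46% and 6.03% of all genes. The median was 0.50, or 0.35 for the 6 other than Gfap and Lcn2, of which 2 rose. Timp1, an inhibitor of metalloproteinases, went from 92.2 to 128 in PD control to 307 to 1723 in LID, a log2 difference of 2.70 ± 0.32. Hspb1, a small heat-shock protein, rose by 0.65 ± 0.16. Cxcl10, a chemokine (0.00 ± 0.07), Cp (ceruloplasmin, 0.11 ± 0.06) and Cd44 (a hyaluronan receptor, 0.17 ± 0.06) did not pass. All 3 rises held without the 3 PD control arrays. Of 16 genes described in reactive astrocytes of inflammation or ischaemia, 4 rose and 0 fell (median 0.072), beside the same shares of all genes. The 4 were Fkbp5 (0.79 ± 0.07), Ptgs2 (0.77 ± 0.11), Serping1 (0.52 ± 0.15) and Emp1 (0.50 ± 0.07). Fkbp5 is also a glucocorticoid target and Ptgs2 is induced in active neurons, so neither is specific to astrocytes. Serping1, a complement inhibitor, did not pass without the 3 PD control arrays (0.38, limma adjusted p = 0.14), and C3 had no named probe.

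Of 15 regulators of astrocyte identity, 12 did not pass, 2 were higher and 1 lower (median -0.069), beside 7.46% and 6.03% of all genes. Sox2 (0.47 ± 0.12) and Emx2 (0.43 ± 0.07), transcription factors of radial glia and astrocytes, rose, and Id3, a target of BMP signalling, fell by 0.30 (limma adjusted p = 0.0497). The Id3 call held in 3 of the 12 fits without 1 array (those without PD control replicate 3, LID replicate 2 or LID replicate 6), with limma adjusted p up to 0.11 in the rest. Without the 3 PD control arrays Sox2 differed by 0.43 and did not pass (limma adjusted p = 0.13). Nfia, Nfib and Nfix, the NFI factors that start astrocyte differentiation, differed by -0.07, -0.32 and -0.23, and none passed. Of 13 genes of glycogen, lactate and cholesterol handling, 1 rose and 1 fell (median -0.089), beside the same shares of all genes. Pygm, a glycogen phosphorylase, rose by 0.40 ± 0.08 and Pygb, another isoenzyme, fell by 0.21. Pygb did not pass without the 3 PD control arrays (-0.16, limma adjusted p = 0.22).

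Tissue content differed between arrays within PD control. Markers of striatal projection neurons were bright on all 12 arrays; their summed intensity was lowest on PD control replicates 1, 3 and 6 (50522 to 51939) and 60889 to 80393 on the other 9. Of 18 measured, 7 rose and 0 fell, beside 7.46% and 6.03% of all genes. Pdyn (1.90) and Tac1 (1.25), the dynorphin and substance P precursors, led them, with Drd1 (0.57) and Ptpn5 (0.50). Pdyn and Tac1 were the 2 that passed without PD control replicates 1, 3 and 6. Choroid plexus and ependymal markers summed to 26698 on PD control replicate 1 and to 1273 and 1343 on replicates 3 and 6, against 2056 to 18358 in LID; none of 13 passed. Mural and meningeal markers showed the same array on top (8170, against 1746 to 2865 in the other controls and 1811 to 5412 in LID), with 0 higher and Vtn lower (-0.36 ± 0.08). The highest control values of Gjb6 and Lcn2 were on replicate 1, and the lowest control values of Gfap and Mlc1 on replicates 3 and 6. The part of tissue content in the differences was not tested. Without the 3 arrays the log2 differences were 0.71 for Gjb6, 0.62 for Lcn2 and 0.33 for Slc1a2, which passed, and 0.22 for Mlc1 and 0.21 for Gfap, which did not.

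Counts for markers of other cell types stand beside 7.46% of all genes that rose and 6.03% that fell. Of 14 microglial markers 0 rose and Aif1, which encodes IBA1, fell by 0.41 (summed intensity 4759 to 6643 in PD control, 4802 to 6118 in LID). Of 13 oligodendrocyte markers 0 rose and 3 fell (Opalin, -0.75, Tspan2, -0.52, and Cnp, -0.45), with sums of 19240 to 31071 and 19850 to 28312, and 6 fell without PD control replicates 1, 3 and 6. The median of these 13 was -0.16, and 11 of them had negative differences. None of 6 precursor markers passed. Endothelial markers had Egfl7 (0.94) and Esam (0.36) higher and Itm2a lower (-0.56) of 9, with sums of 3231 to 4249 and 3288 to 3812. Cortical excitatory markers had Etv1 lower (-0.24) of 11, with sums of 15978 to 20887 and 17684 to 21258. The median of these 11 was -0.14, and 9 of them had negative differences. Their mean log2 value was 8.83 and 8.80 on PD control replicates 3 and 6, and 7.99 to 8.48 on every other array. General neuronal markers had Tubb3 higher (0.26) and Nefm lower of 12, and their sum was highest on PD control replicates 3 (53805) and 6 (49338). Neither passed without replicates 1, 3 and 6 (limma adjusted p = 0.056 and 0.14).

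Within groups, Gfap and Mlc1 deviated together, and this was the 1 pair of 10 past the threshold with all arrays. After subtraction of each group's mean, Pearson's r between Gfap and Mlc1 over the 12 arrays was 0.87 (permutation p = 0.00015, adjusted p = 0.0015 over 10 pairs). Spearman's rho was 0.95 (permutation p = 1e-05, the smallest that these permutations can give, adjusted p = 1e-04). Without the 2 arrays farthest from the median of Gfap r was 0.82, and it was 0.96 within PD control and 0.71 within LID. Without PD control replicates 1, 3 and 6 it was 0.69 over 9 arrays (permutation p = 0.043, adjusted p = 0.14). Over those 9 arrays r was higher for Gjb6 with Slc1a2 (0.75, permutation p = 0.033, adjusted p = 0.14) and for Slc1a2 with Mlc1 (0.74, permutation p = 0.032, adjusted p = 0.14), and no pair passed. Of the 9 other pairs none passed, and the highest r was 0.59 between Gjb6 and Lcn2 (permutation p = 0.047, adjusted p = 0.24; rho 0.47, permutation p = 0.13), which fell to 0.20 without its 2 farthest arrays. Gjb6 and Slc1a2 had an r of 0.43 (permutation p = 0.16, adjusted p = 0.40; rho 0.46, permutation p = 0.13), which was 0.81 without the 2 farthest arrays, 0.77 within LID and -0.32 within PD control. Slc1a2 and Mlc1 had an r of 0.39 (permutation p = 0.23, adjusted p = 0.46; rho 0.13, permutation p = 0.68), which was -0.0013 without the 2 farthest arrays, 0.79 within LID and -0.14 within PD control. Gfap and Gjb6, both astrocyte genes, had an r of 0.24 (permutation p = 0.45; rho 0.28, permutation p = 0.38).

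**Figure D4:**
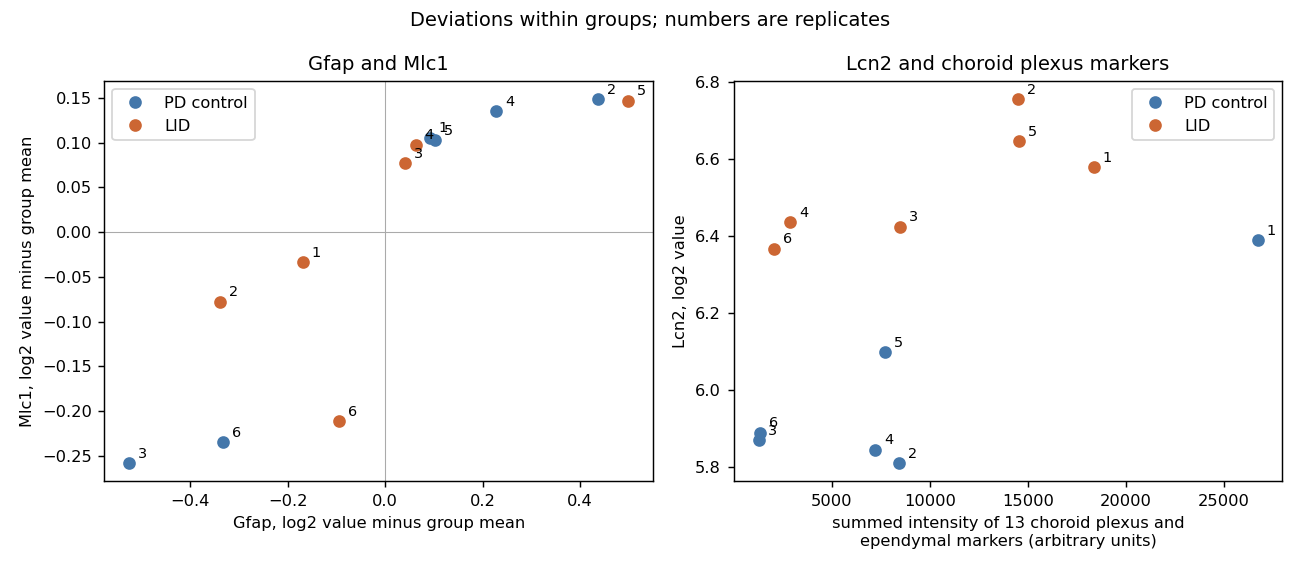
Left: log2 value minus group mean of Mlc1 against that of Gfap on 12 arrays (PD control blue, LID orange; numbers are replicates), which rise together (r = 0.87). Right: log2 value of Lcn2 against the summed intensity of 13 choroid plexus and ependymal markers (arbitrary units). PD control replicate 1, at 26698, is the highest control for both. LID replicates 1, 2 and 5 lie above the other LID arrays for both.

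The genes most like each member, by r of deviations from the group mean over the same 12 arrays among 9217 other named genes, are given as a description. Mlc1 was closest to Rpl36al1 (0.95), Crkl (0.95), Serp1 (0.94), Golm2 (0.93) and Emc4 (0.92), and Gfap to Atp6v1g3, Nckap1l, Ciao1, Golm2 and Park7 (0.87 to 0.90). Golm2 was thus shared by both. Gjb6 was closest to Ndufb11, Ndufc2, Atp5pf, Plbd2 and Pdcd10 (0.89 to 0.94), of which the first 3 encode parts of the respiratory chain and ATP synthase. Slc1a2 was closest to Vps26a, Lat, Kcna1, Prg4 and Axl (0.86 to 0.91), and Lcn2 to Myl9, Chrnb1, Dab2, Asah1 and Steap1 (0.88 to 0.93). Of these 24 genes, Serp1 (0.28), Lat (0.55) and Prg4 (0.58) were themselves higher in LID. Lat did not pass without PD control replicates 1, 3 and 6 (limma adjusted p = 0.062). Prg4 was dim (43.5 to 49.7 in PD control, 53.2 to 86.4 in LID). It reached the lowest maximum of any probe, 57.6, only in LID, so it may have been deposited only through LID. The 5 genes closest to Lcn2 were each highest on PD control replicate 1 among the controls, the same array that was highest for Lcn2. Within LID, replicates 1, 2 and 5 lay above the other arrays for Lcn2 and for each of these 5 genes. The same LID arrays had the higher choroid plexus and ependymal sums (14479 to 18358, against 2056 to 8499). The part of such tissue in the Lcn2 difference was not tested. All points share arrays and normalization, so a high r can come from 1 array.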

How the data were processed

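The authors deposited 1 column of linear intensities per sample, from 1-colour Illumina arrays with biotin-labelled RNA per the labels. The sources used here name no software, background correction or filter on dim probes. The lowest deposited value was 36.5, yet the highest value of each probe was never below 57.595. A filter on dim probes before deposit would leave this pattern, so a dim probe may be present only through the group where it is high. The upper quartile was 425.689 on all 12 arrays and the median 132.3 to 132.386. Values also recurred on different arrays, such as 5469.153 for Gfap on LID replicate 1 and for Park7 on LID replicate 6. Quantile normalization leaves this pattern, so the deposited intensities appear to have been quantile normalized before, by a step the sources do not name. The quantile normalization described next was then a repeat. No detection p-values were used here. With limma 3.58.1 (R 4.3.3), normexp correction with an offset of 50, quantile normalization and a log2 transform followed, so folds of dim genes are understated. Each of 13375 probes was tested with lmFit and eBayes, group as the only term, two-sided, Benjamini-Hochberg adjusted; SEs of differences come from this fit. The steps were tested on simulated data. The labels do not say that each sample is a separate animal; p-values then cover only the spread between these samples, which may be technical. Precision is limited by the 12 arrays. Log2 values of any 2 arrays correlated across probes at 0.979 to 0.996, and 0 arrays were identical.

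The platform annotation named 9434 probes; 3941 had no symbol and 0 had several. For genes with several probes, the one with the highest mean was used. Members and the 20 lists were chosen with earlier results of these data known. The rule named the 5 members, 9 partner genes whatever their values, every called gene of 7 lists, up to 4 called genes of each other list and the 5 genes most like each member. Member and pair tests were exact permutations over 924 assignments; the SE and 95% interval of a pair used the pooled SD. Correlations used 100000 permutations. Alternatives were other background corrections and normalizations, filters on dim probes, a replicate block, array weights, another variance model, 1 probe per gene, each array left out, and PD control replicates 1, 3 and 6 left out. Promoters came from RefSeq, GRCr8; no coordinates of probes are given, since no build is named for the array.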

Additional observations from a re-analysis of the deposited data

Results flagged for a closer look

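Dixon's test, applied to 200 groups of 6 values (named genes, pairs and summed lists), set apart 19 values, and chance alone sets apart about 1 group in 20. None was a value of Gfap, Gjb6, Slc1a2, Mlc1 or Lcn2. On the log2 scale, Slc1a3 was 11.74 on LID replicate 6, against 12.37 to 12.49 on the other LID arrays. PD control replicate 1 stood high for Myl9 (6.605), Dab2 (8.339), Asah1 (10.27) and Steap1 (7.628) and low for Jak2 (8.159). Those high genes were named for their likeness to Lcn2, itself highest among controls on that array, so their flags follow partly from the choice. Summed intensities of PD control replicate 1 stood high for mural and meningeal markers (8170), choroid plexus and ependymal markers (26700) and glutamate uptake and glutamine cycle genes (16190), and low for neutrophil markers (230). PD control replicate 3 stood low for Tspan2 (10.40), Cnp (11.86) and the oligodendrocyte sum (19240). PD control replicate 6 stood high for Emp1 (6.628), and PD control replicate 2 for Ptpn5 (11.31). LID replicate 2 stood high for Emp1 (7.105) and S100a8 (6.538), LID replicate 1 low for Tnfrsf1a (7.044), and LID replicate 6 low for the general neuronal sum (39890).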

How the results depend on the processing

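Gjb6, Slc1a2 and Lcn2 passed in every alternative in which they were tested (23, 23 and 22), with log2 differences of 0.63 to 0.75, 0.30 to 0.40 and 0.51 to 1.79; Lcn2 was not tested among probes above the median. Mlc1 passed in 20 of 23, with 0.30 to 0.39 when 1 array was left out. Without PD control replicates 1, 3 and 6, a fit with fewer arrays, Mlc1 differed by 0.22 and 3 astrocyte markers were higher instead of 7 (5 to 8 when 1 array was left out). In that setting 524 probes were higher instead of 865, 0 member pairs covaried past the threshold instead of 1, and the exact test of Gfap gave 0.21 (p = 0.30); 31 of the 49 named genes past the threshold stayed past it, and the causes were not tested. Gfap differed by 0.36 to 0.56 when 1 array was left out, and its exact p, 0.028 with all arrays, then ran from 0.0087 to 0.063. Same-numbered arrays of the groups deviated with correlations of -0.29 to 0.48, so the numbers were not taken as pairs. With a replicate block, the exact test of Gfap (0.47) gave p = 0.125, 740 probes were higher and 592 lower, and it changed no other member's call (Gjb6 0.68, Slc1a2 0.34, Mlc1 0.35, Lcn2 0.55). When 1 array was left out, the calls of Nefm, Panx2, Fgfr3, Prph, Tubb3, Pygb, Serping1, Id3 and Clcn2 held in 7, 6, 5, 5, 4, 4, 3, 3 and 2 of 12 fits. With an offset of 1, dim genes had larger differences with the same call, such as Panx1 (1.49), Emp1 (1.02), Hspb1 (1.05), S100a8 (1.75) and Prg4 (2.99). Member and pair tests were not run under array weights or the other variance model, nor covariation under the replicate block and the median filter. Dim signal limits Lcn2, Kcnj10, Panx1, S100a8 and Prg4, among others.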
